A study of Homo sapiens with 18 samples.

Results

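The collagen genes were the rows of the gene count table whose symbol is COL, a number, A and a number, which gave 44 genes of 57133. Grouped by the structure their chains build, 11 encode fibrillar chains, 6 encode basement membrane chains of type IV and 27 belong to the other families. Of the 44 genes, 40 had enough reads to be tested, among 17672 tested genes in all. The RNA came from PGP1, a human induced pluripotent stem cell line grown without feeder cells on Matrigel, and was sequenced in 6 libraries. The 2 WT libraries came from the unedited line. The 4 PCGF6-KO libraries came from 2 clones, KO1 and KO2, with 2 libraries each, in which paired guides and Cas9 had removed part of the first exon of PCGF6 on both alleles. PCGF6 is a subunit of a variant Polycomb repressive complex. Each clone is 1 clonal line with a deletion of its own, so a difference between KO1 and KO2 cannot be told apart from any other difference between clones. The labels do not say whether the libraries of a group came from separate cultures, so the p-values measure the spread between libraries, which may be technical. The comparison of PCGF6-KO with WT counts the 4 libraries as separate although they came from 2 clones, so its error mixes clone and library spread. A difference between PCGF6-KO and WT likewise cannot be told apart from an effect of deriving the clones.

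Collagens are secreted proteins whose chains wind around each other into a stiff helix, and they are the main structural proteins of the extracellular matrix. Fibrillar collagens form the fibres of connective tissue, type IV collagens form the sheet under epithelia and around vessels, and the remaining families coat fibrils, build filaments or networks, or cross the cell membrane. In a culture of pluripotent cells the matrix is in part supplied by the coating of the dish, while mesenchymal cells are the classical producers of fibrillar collagen.

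PCGF6 itself had 268 and 300 counts in WT, 99 and 103 in KO1 and 187 and 159 in KO2, a fall by 1.15 on the log2 scale (SE 0.27, adjusted p = 0.00914). Reads outside the deleted stretch still count toward the gene, so its count does not by itself check the deletion. Library totals lay between 15877396 and 18918609 counts. The pluripotency markers were POU5F1, NANOG, SOX2, LIN28A, DPPA4, TDGF1 and SALL4. Their levels are given in TPM, a count scaled by gene length and by the library's total. They summed to 6552 and 6833 TPM in WT, 5937 and 6090 in KO1 and 5379 and 5506 in KO2. Every PCGF6-KO library thus lay below both WT libraries in this sum, but the 7 genes did not move together. On the log2 scale LIN28A (-0.29), DPPA4 (-0.44) and SOX2 (-0.69) were lower in PCGF6-KO. POU5F1 (0.01) and TDGF1 (0.00) were level, and NANOG (0.40) and SALL4 (0.19) were higher. Of the 7 genes SOX2 alone was called lower, at -0.41 in KO1, where it was not called, and -1.04 in KO2, and 0 were called higher. Markers of primitive streak and mesoderm summed to 12.6 and 11.6 TPM in WT and to between 1191 and 1526 TPM in PCGF6-KO, and 6 of the 6 that could be tested, of 7, rose. In WT, TBXT had 0 and 12 counts, EOMES 3 and 5, GSC 1 and 1 and HAND1 0 and 0. These genes had enough reads to be tested only because of their PCGF6-KO libraries, which favoured a rise. Markers of mesenchyme and fibroblasts summed to 548 and 545 TPM in WT and to between 725 and 959 TPM in PCGF6-KO. Most of that sum was THY1, at a mean of 460 TPM in WT and 193 in PCGF6-KO, and TAGLN, at 66.3 and 489 TPM. Of the 11 mesenchyme markers 10 rose, THY1 fell, and TWIST1, LUM and DCN had 0 counts in both WT libraries. Together with PRRX1 and ACTA2, those genes had enough reads to be tested only because of their PCGF6-KO libraries. The sums of these lists moved with the genotype as the collagen genes did, and the part of the lists in the collagen values was not tested. In bulk RNA, more cells of one type and more RNA per cell cannot be told apart.

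The first comparison asked how PCGF6-KO cells differed from WT. Collagen genes were called higher far more often than lower: 23 rose, 2 fell and 15 of the 40 tested were not called. The test was the quasi-likelihood test of edgeR, its p adjusted by Benjamini and Hochberg's method over all tested genes, and it gives each adjusted p for which no other tool is named. To be called, a gene needed an adjusted p under 0.05 and a log2 fold change beyond 0.6 in either direction. Over all tested genes, 14.9% were called higher and 8.70% lower. Among the tested collagen genes the shares were 57.5% and 5.0%, and the median log2 fold change was 0.98 against 0.00 over all genes. Of the 40 tested genes, 35 reached the level of the low-count filter (0.577 CPM, a count scaled by the library's total) in both WT libraries, and 19 of these rose and 2 fell. COL3A1, COL22A1, COL6A6 and COL15A1 lay under that level in both WT libraries, passed the filter through their PCGF6-KO libraries alone and so had to be higher there. COL8A1, with 9 and 16 counts in WT, reached the level in WT replicate 2 only and needed a PCGF6-KO library to pass.

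**Figure D1:**
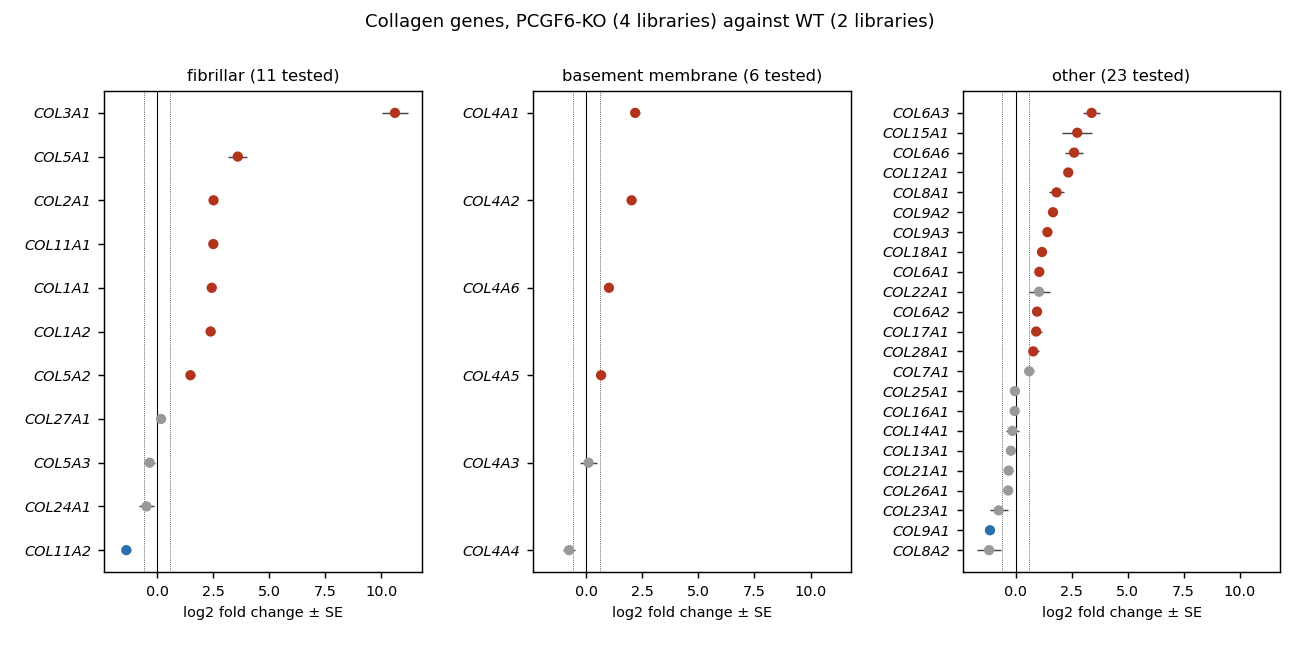
Log2 fold change of the 40 tested collagen genes in 4 PCGF6-KO libraries against 2 WT libraries, with its standard error, in one panel for each class. Red points were called higher, blue points lower and grey points were not called, and the dotted lines mark the threshold of 0.6. COL3A1 lies far to the right of all others at 10.61.

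Among the 11 fibrillar genes, 7 rose, COL11A2 fell, and COL5A3, COL24A1 and COL27A1 were not called, with a median log2 fold change of 2.39. COL3A1, the chain of type III collagen of skin, vessels and soft tissue, was nearly silent in WT, with 6 counts and 1 count. It had 4601 and 4769 counts in KO1 and 7977 and 6886 in KO2, and no PCGF6-KO library came near WT. It passed the low-count filter through those libraries alone, so a rise of some size was set in advance. The fitted log2 fold change was 10.61 (SE 0.56, adjusted p = 1.9e-06). Since it rests on 7 WT counts, its size is poorly fixed: the ratio of summed counts over summed library size was 1597 with a 95% interval of 775 to 3972 for counting error alone, and the log2 fold change was 12.32 without WT replicate 1 and 9.83 without WT replicate 2. COL3A1 lies on chromosome 2 from 188974373 to 189012746 (GRCh38) and ends 19151 bases before COL5A2, which is read from the other strand.

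Type I collagen, the main collagen of bone, skin and tendon, is built of the products of COL1A1 and COL1A2. COL1A1 had 2044 and 2087 counts in WT, 14737 and 13087 in KO1 and 11693 and 9384 in KO2. COL1A2 had 1585 and 1693 in WT, 7731 and 7706 in KO1 and 11365 and 10063 in KO2. Every PCGF6-KO library was above both WT libraries for each gene, but the order of the clones was opposite, with COL1A1 higher in KO1 and COL1A2 higher in KO2. The rise was 2.44 for COL1A1 (log2, SE 0.12, adjusted p = 1.1e-06) and 2.39 for COL1A2 (SE 0.21, adjusted p = 3.5e-05). COL1A1 shares exon sequence with a gene on the opposite strand (ENSG00000249406), and the strand setting of the counting is not given in the sources used here.

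COL2A1 and COL11A1 encode chains found together in cartilage fibrils. The counts of COL2A1 were 490 and 509 in WT, 3590 and 3200 in KO1 and 3191 and 2471 in KO2, a rise of 2.52 (log2, SE 0.10, adjusted p = 3.3e-07). Those of COL11A1 were 538 and 554 in WT, 3134 and 3063 in KO1 and 3926 and 3266 in KO2, a rise of 2.51 (SE 0.13, adjusted p = 2.0e-06). COL11A2, the partner chain of COL11A1 in type XI collagen, moved the opposite way. It had 99 and 88 counts in WT against 39 and 36 in KO1 and 38 and 43 in KO2, and fell by 1.37 on the log2 scale (SE 0.20, adjusted p = 0.000801). No library of PCGF6-KO overlapped WT in any of these 3 genes. The cartilage markers SOX9, ACAN, MATN3 and SOX5 also rose, 4 of the 4 tested of 6, and the list summed to 23.1 and 26.8 TPM in WT and to between 64.1 and 72.1 TPM in PCGF6-KO. COMP and MATN1 were too low to be tested, and the part of this list in the collagen values was not tested.

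Type V collagen controls the thickness of type I fibrils. COL5A1 had 179 and 175 counts in WT, 1528 and 1506 in KO1 and 3342 and 2779 in KO2, a rise of 3.60 (log2, SE 0.43, adjusted p = 0.000235). COL5A2 had 1088 and 1070 in WT, 2691 and 2656 in KO1 and 4111 and 3543 in KO2, a rise of 1.49 (SE 0.21, adjusted p = 0.000661). For both genes KO2 was the highest group, KO1 lay between and WT was lowest, with no overlap. COL5A1 shares exon sequence with ENSG00000286502 on the opposite strand. The third chain gene, COL5A3, was at 3.11 and 2.26 TPM in WT and between 1.68 and 2.65 TPM in PCGF6-KO, and the groups overlapped (log2 fold change -0.33, SE 0.24, adjusted p = 0.33). COL27A1 stayed between 20.1 and 23.2 TPM in all 6 libraries (0.18, SE 0.07, adjusted p = 0.0668), and COL24A1 lay at 1.45 and 1.51 TPM in WT, 1.21 and 1.44 in KO1 and 0.898 and 0.537 in KO2 (-0.47, SE 0.33, adjusted p = 0.294).

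**Figure D2:**
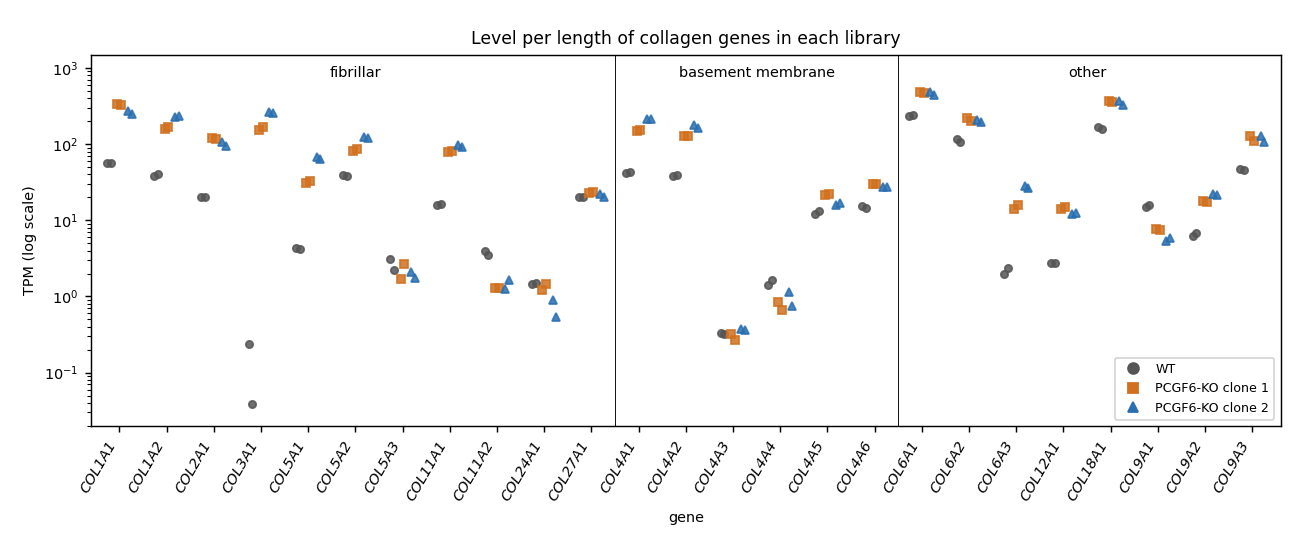
Level per length (TPM, log axis) of the 11 fibrillar genes, the 6 basement membrane genes and 8 genes of the other families in each library, with WT as grey circles, KO1 as orange squares and KO2 as blue triangles. COL3A1 moves from 0.24 and 0.0392 TPM in WT to between 153 and 265 TPM in PCGF6-KO, while COL27A1 and COL4A3 stay in place.

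The 6 type IV genes sit in pairs whose members are read in opposite directions from neighbouring starts. In RefSeq the starts are 127 bases apart for COL4A1 and COL4A2 on chromosome 13, 419 for COL4A3 and COL4A4 on chromosome 2 and 380 for COL4A5 and COL4A6 on the X chromosome. The promoter windows of 1 member of each pair are shown because the pairs differed in how they moved. Each runs from 250 bases before the RefSeq start to 50 bases after it (GRCh38.p14), 5′ to 3′, with the box CCAAT or its reverse complement ATTGG in capitals.
COL4A2, chr13:110307034-110307333, + strand: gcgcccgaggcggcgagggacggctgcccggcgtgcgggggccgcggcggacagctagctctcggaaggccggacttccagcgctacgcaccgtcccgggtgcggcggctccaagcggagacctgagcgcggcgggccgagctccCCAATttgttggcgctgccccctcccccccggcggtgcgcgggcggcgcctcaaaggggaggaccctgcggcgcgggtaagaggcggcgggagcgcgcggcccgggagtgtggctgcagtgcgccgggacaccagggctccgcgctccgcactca
COL4A3, chr2:227164374-227164673, + strand: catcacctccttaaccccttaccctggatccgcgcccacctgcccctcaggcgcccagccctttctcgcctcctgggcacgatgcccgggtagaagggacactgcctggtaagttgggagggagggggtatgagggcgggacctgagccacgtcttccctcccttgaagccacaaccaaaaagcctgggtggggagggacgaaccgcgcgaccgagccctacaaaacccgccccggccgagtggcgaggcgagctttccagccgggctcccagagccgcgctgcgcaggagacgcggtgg
COL4A5, chrX:108439588-108439887, + strand: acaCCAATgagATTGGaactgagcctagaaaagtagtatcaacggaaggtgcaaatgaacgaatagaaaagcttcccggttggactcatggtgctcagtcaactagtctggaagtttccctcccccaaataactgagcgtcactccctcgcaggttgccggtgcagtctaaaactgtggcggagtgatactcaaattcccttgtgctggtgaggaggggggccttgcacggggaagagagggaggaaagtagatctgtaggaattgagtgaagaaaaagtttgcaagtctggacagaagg
The COL4A2 window, which reaches over the start of COL4A1, held 1 such box and 77.7% G and C. The COL4A5 window held 2 boxes and 49.3% G and C, and the COL4A3 window held none and 67.7% G and C. A promoter entry was found for 32 of the 44 collagen genes, 44 entries in all. The 12 genes without one, which were not searched, were COL1A1, COL1A2, COL2A1, COL3A1, COL5A2, COL6A1, COL6A5, COL8A1, COL9A3, COL14A1, COL20A1 and COL22A1, among them 8 of the 23 that rose and 5 of the 7 fibrillar genes that rose. In the entries searched, CCAAT on either strand stood in 14 (31.8%), against 34.6% of all 35116 entries of this length. The E-box CACGTG stood in none of the 44 entries against 7.3% of all, and GCGGGAA, read by E2F factors, stood in 2 (4.5%, COL7A1 and COL5A3) against 6.6%, both strands searched. CACGTG and GCGGGAA are the core motifs of factors that belong to the same complex as PCGF6, and a match or its absence describes the letters of the window alone.

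Of the 6 type IV genes, 4 rose and none was called lower, with a median log2 fold change of 0.83. COL4A1 and COL4A2 encode the ubiquitous chains of basement membranes. COL4A1 had 2274 and 2395 counts in WT, 9742 and 9332 in KO1 and 14164 and 12195 in KO2, a rise of 2.18 (log2, SE 0.20, adjusted p = 5.2e-05). COL4A2 had 2699 and 2878 in WT, 10836 and 10242 in KO1 and 15292 and 12376 in KO2, a rise of 2.02 (SE 0.18, adjusted p = 3.9e-05). The pair on the X chromosome moved less. COL4A6 had 517 and 509 counts in WT, 1235 and 1135 in KO1 and 1130 and 977 in KO2, a rise of 1.01 (SE 0.07, adjusted p = 9.8e-06). COL4A5 had 533 and 580 in WT, 1122 and 1087 in KO1 and 845 and 774 in KO2, a rise of 0.66 (SE 0.12, adjusted p = 0.00261) that was not called in the test against a fold change of 1.5. In all 4 genes every PCGF6-KO library exceeded both WT libraries in CPM. COL4A2 overlaps exons of COL4A2-AS1 and COL4A2-AS2 on the other strand.

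COL4A3 and COL4A4, which with COL4A5 make the collagen of the kidney's filtration barrier, were the low members. COL4A3 had between 10 and 15 counts in every library, and the groups overlapped (log2 fold change 0.10, SE 0.36, adjusted p = 0.858). COL4A4 had 52 and 63 counts in WT, 38 and 28 in KO1 and 51 and 29 in KO2 (-0.77, SE 0.27, adjusted p = 0.0507), close to the threshold. It was called lower in 5 alternatives, at adjusted p = 0.0178 without KO2 replicate 1 (-0.96), 0.0056 with the mean of the clones, 0.0423 with upper-quartile scaling, 0.0354 with library totals and 0.0451 with at least 10 counts in every library. Endothelial markers, whose cells also make type IV collagen, summed to 150 and 147 TPM in WT and to between 331 and 383 TPM in PCGF6-KO. Of the 6 tested of 7, KDR rose, CDH5 and TIE1 fell, and PECAM1, with 19 and 28 counts in WT and between 6 and 17 in PCGF6-KO, was not called. The rise of the sum was nearly all KDR, at a mean of 101 TPM in WT and 308 in PCGF6-KO. TEK, not called, was at 42.2 and 47.9 TPM, and each other marker had a mean of at most 2.3 TPM in either group. The part of this list in the type IV values was not tested.

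Of the 27 other collagen genes 23 were tested, 12 rose, COL9A1 fell and 10 were not called, with a median log2 fold change of 0.92. Type VI collagen builds beaded filaments close to cells, and its 4 tested genes all rose. COL6A3 had 141 and 172 counts in WT, 1227 and 1287 in KO1 and 2481 and 2040 in KO2, a rise of 3.39 (log2, SE 0.37, adjusted p = 0.000143). COL6A1 had 4588 and 4767 in WT, 11450 and 10248 in KO1 and 11372 and 9257 in KO2, a rise of 1.06 (SE 0.07, adjusted p = 4.4e-06). COL6A2 had 2285 and 2184 in WT, 5300 and 4525 in KO1 and 4965 and 4041 in KO2, a rise of 0.96 (SE 0.07, adjusted p = 1.5e-05). COL6A1 and COL6A2, which lie side by side on chromosome 21 with 93061 bases between them, thus moved by about the same amount in both clones, and COL6A3 moved more. COL6A6 was low, with 3 and 6 counts in WT, 34 and 38 in KO1 and 28 and 22 in KO2 (2.61, SE 0.41, adjusted p = 0.00113), and its neighbour COL6A5 did not pass the low-count filter. COL6A6 itself passed that filter through its PCGF6-KO libraries alone, so it had to be higher there.

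The fibril-associated collagens coat the surface of fibrils. COL12A1, which is found in tendon and in tissue under load, had 125 and 128 counts in WT, 765 and 765 in KO1 and 660 and 605 in KO2, a rise of 2.35 (log2, SE 0.10, adjusted p = 6.8e-07). The 3 genes of type IX collagen, which decorates cartilage fibrils, parted. COL9A2 had 97 and 106 counts in WT, 330 and 299 in KO1 and 420 and 348 in KO2, a rise of 1.67 (SE 0.18, adjusted p = 0.000116). COL9A3 had 847 and 820 in WT, 2760 and 2221 in KO1 and 2737 and 1993 in KO2, a rise of 1.42 (SE 0.11, adjusted p = 1.3e-05). COL9A1, in contrast, had 394 and 426 in WT, 249 and 223 in KO1 and 173 and 163 in KO2, and fell by 1.14 on the log2 scale (SE 0.14, adjusted p = 0.000242). In each of the 3 genes the WT libraries stood apart from all PCGF6-KO libraries. COL9A3 shares exon sequence with TCFL5, and COL9A1 with ENSG00000253809, each on the opposite strand.

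COL18A1 and COL15A1 encode basement membrane collagens with long sugar chains, and COL18A1 is the source of endostatin. COL18A1 had 5216 and 5119 counts in WT, 14050 and 12426 in KO1 and 13856 and 10694 in KO2, a rise of 1.18 (log2, SE 0.07, adjusted p = 4.9e-06), and its exons overlap SLC19A1 on the other strand. COL15A1 had 6 and 7 counts in WT, 21 and 32 in KO1 and 73 and 64 in KO2, a rise of 2.75 (SE 0.66, adjusted p = 0.0108) that was not called without WT replicate 1 (adjusted p = 0.0862) or without WT replicate 2 (adjusted p = 0.0766). COL8A1, a short chain that builds networks in vessel walls and the cornea, had 9 and 16 counts in WT, 43 and 49 in KO1 and 45 and 55 in KO2, a rise of 1.83 (SE 0.33, adjusted p = 0.00248). Both low genes were higher in every PCGF6-KO library than in either WT library. COL15A1 had to be higher there to pass the low-count filter, and COL8A1 needed a PCGF6-KO library to pass it. Counting error alone gave a ratio of 6.74 with a 95% interval of 3.85 to 12.9 for COL15A1 and of 3.54 with 2.33 to 5.61 for COL8A1. COL15A1 shares exon sequence with ENSG00000270412 on the opposite strand.

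COL17A1, a membrane collagen of epithelial anchoring plaques, and COL28A1 were the smallest calls among the other families. COL17A1 had 29 and 36 counts in WT and between 48 and 85 in PCGF6-KO (log2 fold change 0.92, SE 0.24, adjusted p = 0.0153), and the call was lost without WT replicate 1 (adjusted p = 0.134) or WT replicate 2 (0.0653). COL28A1 had 24 and 19 counts in WT and between 38 and 42 in PCGF6-KO (0.79, SE 0.24, adjusted p = 0.033), and it was not called in DESeq2 (adjusted p = 0.147) or without either WT library (0.0777 and 0.223), either KO1 library (0.051 and 0.0553) or KO2 replicate 2 (0.06). The other 10 tested genes were not called. COL26A1, second in level in WT, had 2342 and 2310 counts in WT, 2280 and 1984 in KO1 and 2056 and 1697 in KO2, and its difference of -0.33 (SE 0.07, adjusted p = 0.00423) was under the fold threshold. COL16A1, COL21A1, COL13A1 and COL25A1 lay between 2.36 and 8.03 TPM in every library, with log2 fold changes between -0.31 and -0.03 (lowest adjusted p = 0.23). COL22A1 was at most at 0.433 TPM (1.05, SE 0.47, adjusted p = 0.113). COL7A1, COL8A2, COL23A1 and COL14A1 were not called in the joint comparison and differed between the clones.

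Summed over all 44 genes, collagen transcripts made up 1186 and 1174 TPM in WT, 2846 and 2772 in KO1 and 3088 and 2888 in KO2, 2.46 times as much in PCGF6-KO. The fibrillar genes gained the most. They summed to 205 and 204 TPM in WT, 992 and 1004 in KO1 and 1188 and 1135 in KO2, a ratio of 5.28. Type IV genes summed to 109 and 113 TPM in WT, 330 and 334 in KO1 and 441 and 423 in KO2, a ratio of 3.44. The other 27 genes summed to 871 and 856 TPM in WT, 1524 and 1433 in KO1 and 1458 and 1330 in KO2, a ratio of 1.66. In each class the WT libraries lay below all PCGF6-KO libraries, and no test was run on these sums.

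The order of the levels per length also shifted. In WT the highest collagen was COL6A1 at 236 TPM, followed by COL26A1 at 199, COL18A1 at 164, COL6A2 at 112 and COL1A1 at 56.8 TPM, and the ranges of neighbours in this order did not overlap. In PCGF6-KO it was COL6A1 at 469 TPM, COL18A1 at 354, COL1A1 at 295, COL3A1 at 212, COL6A2 at 207, COL1A2 at 197 and COL4A1 at 183 TPM. From COL18A1 down, the ranges of neighbours over the 4 libraries overlapped. Within each library COL18A1 still exceeded COL1A1, at 374 against 341 and 353 against 323 TPM in KO1 and 367 against 269 and 322 against 246 TPM in KO2. COL1A2 likewise exceeded COL4A1 in each library. Between COL1A1 and COL1A2 in this order, neighbours changed places from library to library, so that part is not fixed. COL3A1 took rank 6 in KO1 (161 TPM), where its range overlapped those of COL1A2 (162 TPM) and COL26A1 (158 TPM). In KO2 it took rank 3 (262 TPM), where its range overlapped that of COL1A1 (257 TPM). COL26A1 went from 199 TPM in WT to 158 in KO1 and 143 in KO2.

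Chains that assemble into the same molecule did not keep their ratios in every case. The ratio of TPM of COL4A1 to COL4A2 was 1.1 and 1.09 in WT, 1.18 and 1.19 in KO1 and 1.21 and 1.29 in KO2, and that of COL6A1 to COL6A2 lay between 2.02 and 2.31 in all 6 libraries. The ratio of COL1A1 to COL1A2 was 1.47 and 1.4 in WT, 2.17 and 1.93 in KO1 and 1.17 and 1.06 in KO2, above WT in one clone and below it in the other. Larger shifts were seen where 1 chain had been scarce or fell. COL5A1 stood at 0.11 and 0.109 of COL5A2 in WT, 0.378 and 0.378 in KO1 and 0.542 and 0.522 in KO2. COL6A1 exceeded COL6A3 by 120 and 102 times in WT, 34.3 and 29.3 in KO1 and 16.8 and 16.7 in KO2. COL11A1 exceeded COL11A2 by 4.03 and 4.67 times in WT and by between 56.3 and 76.6 times in PCGF6-KO. COL9A1 stood at 0.311 and 0.347 of COL9A3 in WT and at between 0.0423 and 0.0671 in PCGF6-KO. The WT libraries lay outside the range of the PCGF6-KO libraries in each of these 4 pairs, while COL11A1 to COL2A1 stayed between 0.64 and 0.969 throughout with WT inside that range. These ratios are descriptions of RNA without a test.

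**Figure D3:**
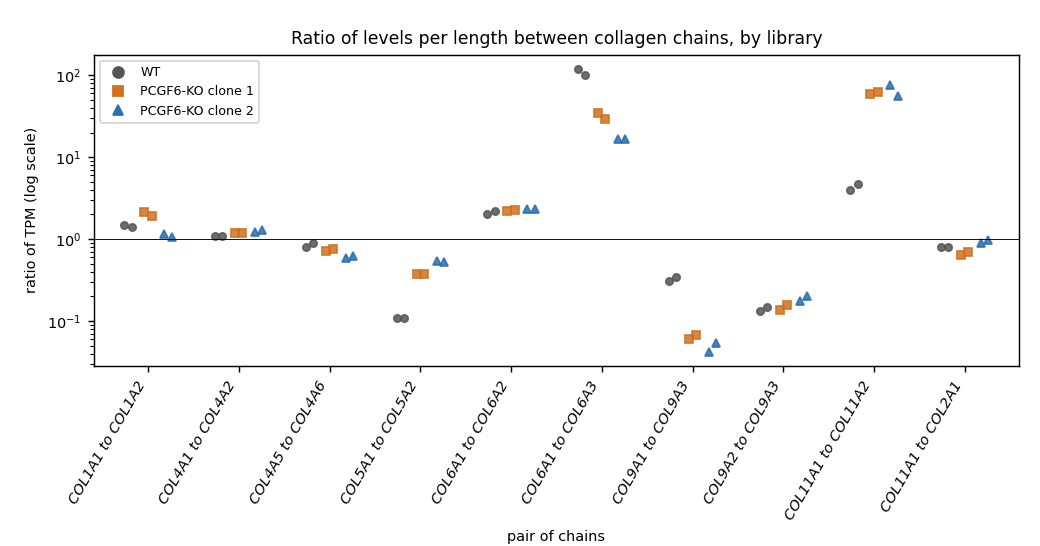
Ratio of levels per length (TPM, log axis) between 10 pairs of collagen chains in each library, with WT as grey circles, KO1 as orange squares and KO2 as blue triangles. The line marks equal levels. COL6A1 to COL6A2 holds its place, while COL11A1 to COL11A2 moves up and COL9A1 to COL9A3 moves down in all 4 PCGF6-KO libraries.

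Each clone was then set against the same 2 WT libraries, in a fit with WT, KO1 and KO2 as separate groups. In KO1, 24 collagen genes were called higher and 3 lower, where 16.0% of all tested genes were called higher and 8.80% lower. In KO2, 22 were called higher and 6 lower, against 16.9% and 12.5% of all genes. Because both comparisons use the same WT libraries, their calls are not independent. Those called lower were COL11A2, COL9A1 and COL4A4 in KO1 and COL11A2, COL9A1, COL24A1, COL14A1, COL8A2 and COL23A1 in KO2. Leaving out 1 library ended the KO1 call of COL28A1 (adjusted p between 0.0538 and 0.219 without either WT or either KO1 library). In KO2 it ended the calls of COL28A1 (0.218 without WT replicate 2, 0.0658 and 0.124 without either KO2 library), COL17A1 (0.111 without WT replicate 1, 0.131 without KO2 replicate 1), COL24A1 (0.123 without KO2 replicate 2) and COL14A1, whose log2 fold change was then -0.57 without KO2 replicate 1. DESeq2 did not call COL4A4 in KO1 (adjusted p = 0.0669) or COL24A1 in KO2 (0.088), nor COL28A1 in either clone (0.236 and 0.222) or COL17A1 in KO2 (0.133). COL4A5 was called in KO1 (0.81, SE 0.08, adjusted p = 6.0e-09) and was under the fold threshold in KO2 (0.49, SE 0.08, adjusted p = 2.1e-05).

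The difference between the clones was tested directly. Between KO2 and KO1, 5 collagen genes were called higher in KO2 and 5 lower, which is 12.5% of the tested members in each direction against 3.73% and 4.14% of all tested genes. The median difference over the members was -0.02 on the log2 scale. COL15A1 rose by 1.83 in KO1 and 3.32 in KO2 against WT, a difference of 1.49 (SE 0.28, adjusted p = 0.000289). COL5A1 rose by 2.92 and 4.06, a difference of 1.14 (SE 0.07, adjusted p = 2.6e-12). COL6A3 rose by 2.83 and 3.80, a difference of 0.97 (SE 0.08, adjusted p = 5.1e-10). In these 3 genes KO2 lay farther from WT than KO1. COL3A1 differed by 0.79 (SE 0.06, adjusted p = 1.3e-09) and COL5A2 by 0.64 (SE 0.06, adjusted p = 1.4e-08).

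The 5 genes lower in KO2 were at or below WT in KO2 apart from COL7A1. COL8A2, the partner of COL8A1, had 78 and 81 counts in WT, 46 and 78 in KO1 and 15 and 15 in KO2, so that KO2 stood apart from the rest (difference -1.92, SE 0.32, adjusted p = 8.3e-05). COL23A1, a membrane collagen, had 141 and 145 in WT, 158 and 118 in KO1 and 56 and 42 in KO2 (-1.37, SE 0.19, adjusted p = 7.8e-06). In both genes KO1 was not called against WT, at -0.53 (adjusted p = 0.0696) and -0.23 (adjusted p = 0.251). COL14A1, a fibril-associated collagen, had 884 and 879 in WT, 1231 and 1168 in KO1 and 533 and 575 in KO2 (-0.98, SE 0.09, adjusted p = 6.8e-09), with KO1 above WT by 0.27 and KO2 below it by 0.72 on the log2 scale. COL7A1, which forms the anchoring fibrils of skin, had 440 and 429 in WT, 942 and 896 in KO1 and 609 and 459 in KO2. It was called higher in KO1 alone (0.90 against 0.24 in KO2), and the clones differed by -0.66 (SE 0.09, adjusted p = 6.5e-06), or by -0.55 without KO2 replicate 2. COL24A1 differed by -0.77 (SE 0.28, adjusted p = 0.0499) and was not called without KO1 replicate 1 (0.0668), KO1 replicate 2 (0.196) or KO2 replicate 2 (0.38).

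**Figure D4:**
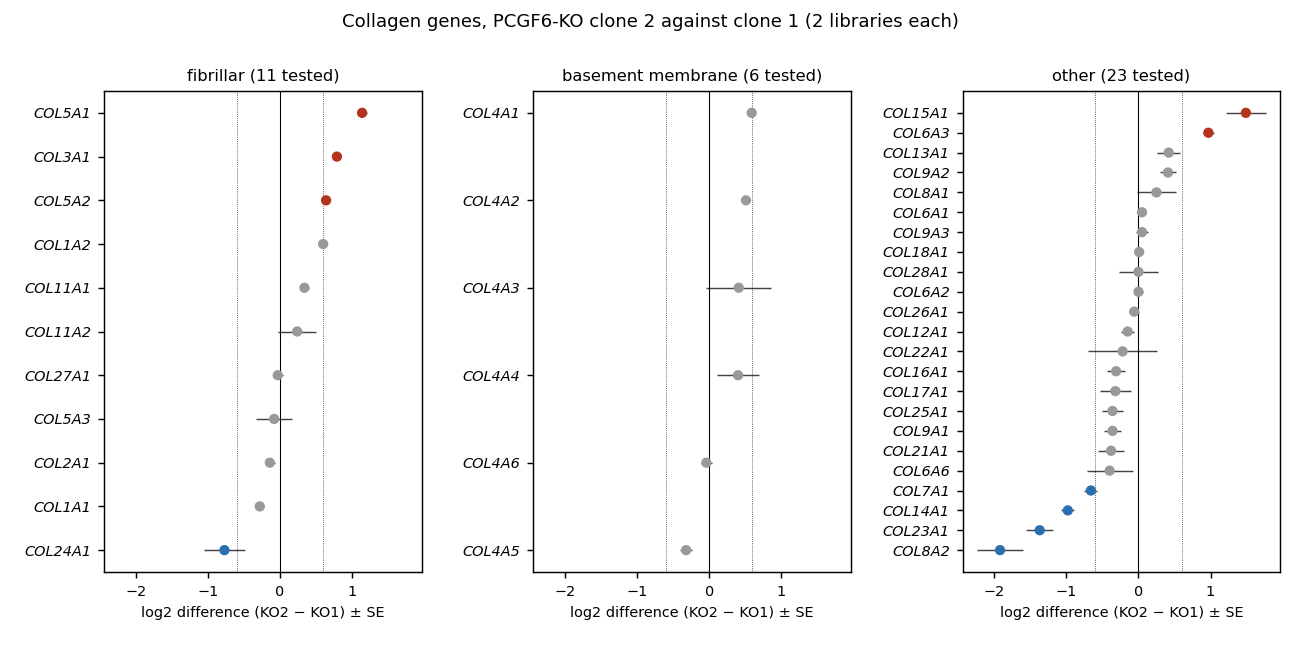
Log2 difference of KO2 (2 libraries) minus KO1 (2 libraries) for the 40 tested collagen genes, with its standard error, by class. Red and blue points were called higher and lower in KO2, grey points were not called, and the dotted lines mark the threshold of 0.6. COL5A1, COL15A1 and COL6A3 lie to the right and COL8A2, COL23A1 and COL14A1 to the left.

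With both clones as 1 group, COL8A2 was at -1.18 (SE 0.54, adjusted p = 0.119), COL23A1 at -0.75 (SE 0.40, adjusted p = 0.176), COL14A1 at -0.14 (SE 0.29, adjusted p = 0.744) and COL7A1 at 0.61 (SE 0.22, adjusted p = 0.0564). COL7A1 was called in DESeq2 (adjusted p = 0.00933), with no filter (0.00763), without KO2 replicate 1 (0.70, adjusted p = 0.0406) and without KO2 replicate 2 (0.74, adjusted p = 0.0102). COL8A2 was called with no filter (adjusted p = 0.0355) and without KO1 replicate 2 (-1.76, adjusted p = 0.0127), and COL23A1 without KO1 replicate 1 (-1.08, adjusted p = 0.039). When the mean of both clones was set against WT, where the spread between clones does not enter the error, COL8A2 was at -1.49 (adjusted p = 4.9e-06) and COL23A1 at -0.91 (adjusted p = 1.1e-05). Several further genes differed between the clones by less than the fold threshold. COL1A2 was higher in KO2 by 0.60 (SE 0.05, adjusted p = 6.8e-09), COL4A1 by 0.59 (SE 0.05, adjusted p = 4.6e-09) and COL4A2 by 0.51 (SE 0.05, adjusted p = 1.2e-07), while COL1A1 was lower by 0.28 (difference -0.28, SE 0.06, adjusted p = 0.000809). COL6A1, COL6A2, COL18A1 and COL9A3, all among the most abundant collagens, differed by between -0.00 and 0.05, with overlapping libraries.

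COL10A1, COL19A1, COL20A1 and COL6A5 did not pass the low-count filter. COL10A1, the collagen of hypertrophic cartilage, had between 5 and 10 counts in each library. No read of COL19A1 was counted in WT, and the PCGF6-KO libraries held 4, 3, 6 and 2. COL20A1 had between 4 and 9 counts in each library, and COL6A5 had 0 and 3 in WT, 9 and 9 in KO1 and 3 and 5 in KO2. In the fit without that filter, COL19A1 was called higher in PCGF6-KO (adjusted p = 0.0447) and in KO2 (0.0486), and COL6A5 in KO1 (0.0439), each on fewer than 10 counts in any library. COL10A1 and COL20A1 were not called there in any comparison, at counts too low to show a small difference.

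Genes that act on collagen were counted in 6 lists, of whose 66 tested genes 27 rose (40.9%) and 4 fell (6.06%) in PCGF6-KO against WT, beside 14.9% and 8.70% of all tested genes. Among those that rose, LOXL4 and MMP1 lay under the level of the low-count filter in both WT libraries and so had to be higher to be tested. ITGA11 reached that level in WT replicate 1 only. In the list of enzymes and chaperones that modify and fold the chains in the endoplasmic reticulum, 6 of 18 tested genes rose and P3H3 fell, with a median log2 fold change of 0.37. COLGALT2, which adds galactose to hydroxylysine, had 49 and 52 counts in WT and between 374 and 411 in PCGF6-KO (2.86, SE 0.12, adjusted p = 5.6e-07). P3H2, a prolyl 3-hydroxylase, rose by 2.65 (SE 0.13, adjusted p = 1.2e-06), the lysyl hydroxylase PLOD2 by 1.28 (SE 0.17, adjusted p = 0.000423) and the prolyl 4-hydroxylase subunit P4HA1 by 0.88 (SE 0.12, adjusted p = 0.000497). P3H3 fell by 0.67 on the log2 scale (SE 0.11, adjusted p = 0.00149). SERPINH1, the collagen chaperone, differed by 0.44 (SE 0.08, adjusted p = 0.00196), under the fold threshold. PLOD3 (0.80) and P3H1 (0.61) were the other 2 that rose. Against WT, P3H1 (0.58 in KO1, 0.63 in KO2) and P3H3 (-0.54 and -0.81) were past the threshold in KO2 alone. Of the 10 genes for secretion of procollagen, CREB3L1 alone rose (0.74, SE 0.09, adjusted p = 0.000341) and none fell, with a median of -0.06, so that the share called higher was not above that of all genes.

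Outside the cell, propeptides are cut off and the fibres are cross-linked. In this list 8 of 14 genes rose and none was called lower in the joint comparison, with a median of 0.84. LOXL3 was at 0.44 in KO1 and -0.91 in KO2 against WT, and the clones differed by -1.34 (SE 0.10, adjusted p = 4.3e-10). It was called lower in KO2 (adjusted p = 8.2e-08), as was TLL1 (-2.30, adjusted p = 0.011), which had 1 and 3 counts there. LOXL4, a cross-linking oxidase, had 1 and 6 counts in WT, 71 and 52 in KO1 and 72 and 48 in KO2 (log2 fold change 3.95, SE 0.47, adjusted p = 0.000229). LOX rose by 2.46 (SE 0.39, adjusted p = 0.0012), BMP1, which cleaves the C-propeptide, by 1.83 (SE 0.17, adjusted p = 5.7e-05) and LOXL2 by 1.42 (SE 0.15, adjusted p = 0.000124). PCOLCE2, TLL2, ADAMTS14 and LOXL1 rose by between 0.79 and 1.13. Among 12 tested genes of collagen breakdown 6 rose and 2 fell, with a median of 0.57. MMP1, the interstitial collagenase, was at 0 counts in both libraries of WT and at 19 and 16 in KO1 and 42 and 42 in KO2. The inhibitor TIMP3 rose by 2.74 (SE 0.23, adjusted p = 2.9e-05), MMP2 by 1.45 (SE 0.18, adjusted p = 0.000336) and the collagen uptake receptor MRC2 by 1.13 (SE 0.20, adjusted p = 0.0019), with TIMP2 (0.62) and MMP14 (0.60) just past the threshold. CTSK, a protease of bone collagen, fell by 1.21 (SE 0.13, adjusted p = 0.000123) and MMP9 by 0.73 (SE 0.25, adjusted p = 0.0455) on the log2 scale. Against WT, TIMP2 (0.55 in KO1, 0.69 in KO2) and MMP14 (0.35 and 0.81) were past the threshold in KO2 alone. MMP9 was past it in KO1 alone (-1.15 in KO1, -0.40 in KO2).

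Of the 7 collagen receptors 3 rose and DDR1 fell, with a median of 0.55. ITGA11, the integrin chain for fibrillar collagen on mesenchymal cells, had 13 and 7 counts in WT, 121 and 106 in KO1 and 234 and 208 in KO2 (3.95, SE 0.52, adjusted p = 0.00043). DDR2, a receptor kinase for fibrillar collagen, had 30 and 28 in WT, 173 and 208 in KO1 and 267 and 237 in KO2 (2.82, SE 0.27, adjusted p = 5.5e-05). DDR1, its relative in epithelia, had 4375 and 4437 in WT, 3713 and 3398 in KO1 and 2345 and 1945 in KO2, and fell by 0.76 on the log2 scale (SE 0.18, adjusted p = 0.00997). Its change was -0.49 in KO1, under the fold threshold, and -1.09 in KO2. The WT libraries stood apart from all PCGF6-KO libraries in ITGA11, DDR2 and DDR1. ITGB1, the beta chain these integrins share, rose by 0.98 (SE 0.09, adjusted p = 5.9e-05). Of the 5 partners of type IV collagen in basement membranes, NID2 (2.86, SE 0.36, adjusted p = 0.000339), SPARC (1.11, SE 0.12, adjusted p = 0.000133) and NID1 (0.70, SE 0.22, adjusted p = 0.0335) rose. AGRN (0.56) and HSPG2 (-0.33) were under the fold threshold, and the median was 0.70. Against WT, NID1 was past the threshold in KO2 alone (0.31 in KO1, 1.01 in KO2) and AGRN in KO1 alone (0.69 in KO1, 0.43 in KO2).

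**Figure D5:**
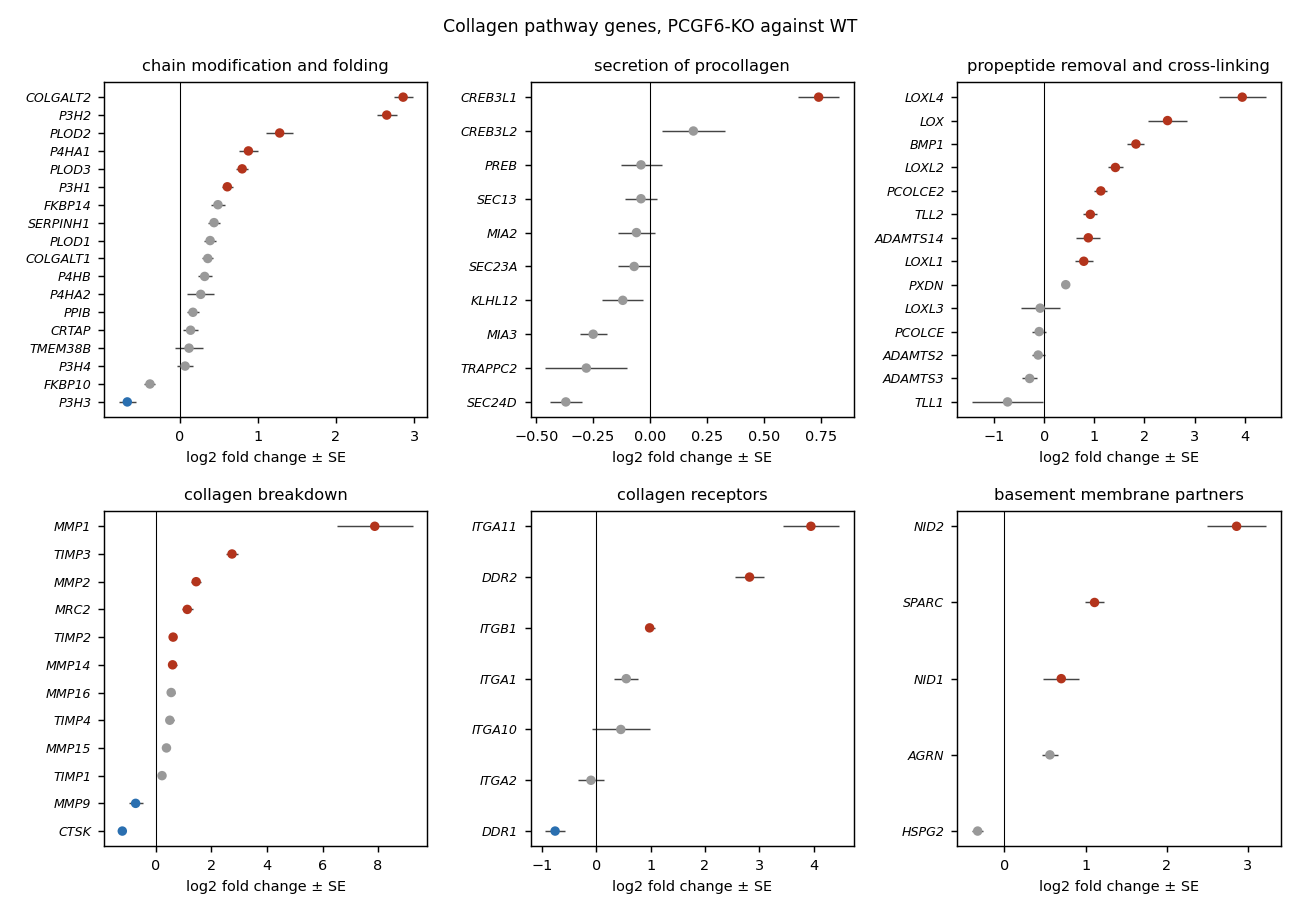
Log2 fold change of the tested genes of the 6 collagen pathway lists in 4 PCGF6-KO libraries against 2 WT libraries, with its standard error. Red points were called higher, blue points lower and grey points were not called, and each panel has its own horizontal axis. Most points of the cross-linking list lie to the right of 0 and the secretion list is centred near -0.06.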

How the data were processed

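RNA-seq of 6 libraries was analysed, and the other 12 samples of the series were not analysed here. Per the labels and the study's methods, the authors trimmed the reads with Trim Galore (0.6.2), aligned them to GRCh38 with HISAT2 (2.1.0) and made gene counts with featureCounts, and the deposited values are raw counts with a gene length beside them. How strand and reads with several matches were treated, and which annotation was counted, are not given in the sources used here. The table held 0 columns of other samples.

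From the counts, genes with low counts were removed with filterByExpr on genotype, libraries were scaled by TMM, and edgeR (4.0.16, R 4.3.3) quasi-likelihood fits compared PCGF6-KO with WT, and each clone with WT and with the other clone. Calls needed a Benjamini-Hochberg adjusted p under 0.05 over all tested genes and an absolute log2 fold change over 0.6, after the study's thresholds. The SE given with an edgeR log2 fold change, in text and figures, is its absolute size divided by the square root of the F statistic of its test. It is not the standard error of the fitted coefficient. TPM were computed here from the counts and lengths. The scripts were tested on simulated data. Positions are from GENCODE and promoters from RefSeq (GRCh38.p14).

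Genes given in full were the members called in each class by size of change, up to 8 a class, the 5 highest in WT and those that differed between clones, with up to 4 genes of a pathway list in each direction. Other genes are named by count or call, and CCAAT was added as a motif later. The members, classes, 6 pathway lists and 8 marker lists were chosen with earlier results of these data known. Replicates of 1 group differed by more than counting error (chi-square per degree of freedom 2.4 in WT, 4.5 in KO1 and 3.21 in KO2). Alternatives were DESeq2 (1.42.0), other scalings, filters and thresholds, the mean of the clones, the replicate block and leaving out each library. Intervals cover counting error only.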

Additional observations from a re-analysis of the deposited data

Results flagged for a closer look

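Between the clones, 10 collagen genes differed in the test of KO2 against KO1 itself, a contrast between groups that carry the same knocked-out gene. On the log2 scale, KO2 was above KO1 by 1.49 for COL15A1, 1.14 for COL5A1, 0.97 for COL6A3, 0.79 for COL3A1 and 0.64 for COL5A2. KO2 was below KO1 for the other 5, with differences of -1.92 for COL8A2, -1.37 for COL23A1, -0.98 for COL14A1, -0.77 for COL24A1 and -0.66 for COL7A1. COL5A2 was no longer past the fold threshold when libraries were scaled by their totals (0.57). With 1 clone of each deletion, what sets the clones apart cannot be told apart from the deletion.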

How the results depend on the processing

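The count of collagen genes called higher in PCGF6-KO against WT was 23, and lay between 19 (at least 10 counts in every library) and 24 (no filter) over the alternatives, with 23 in DESeq2 and a range of 20 to 24 when 1 library was left out. The count called lower went from 2 to 5 with the mean of the clones. In KO1 the count called lower went from 3 to 5 at adjusted p alone. Between KO2 and KO1 the count called higher, 5, became 3 with at least 10 counts in every library and 10 at adjusted p alone. The count called lower, 5, became 8 at adjusted p alone and 3 in the test against a fold change of 1.5, and ranged from 3 to 5 when 1 library was left out, with 3 without KO2 replicate 2. For the pathway lists the count called lower, 4, became 8 at adjusted p alone and 1 against a fold change of 1.5, and ranged from 1 to 4 when 1 library was left out (1 without WT replicate 1, 2 without WT replicate 2). The summed collagen level was 2.58 times WT in CPM per kilobase against 2.46 in TPM. Genes that were not called changed sign when 1 library was left out: COL14A1 ranged from -0.30 to 0.05, COL16A1 from -0.14 to 0.07 and COL25A1 from -0.17 to 0.09. The cause was not tested in any of these. Of the single-gene values called in PCGF6-KO against WT, 381 kept their call under an alternative and 15 lost it.

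Same-numbered libraries deviated together only weakly, with correlations over 15104 genes of 0.042 for WT and KO1, 0.053 for WT and KO2 and 0.162 for KO1 and KO2. Weak correlations cannot exclude that the numbers pair the libraries, and the main fits did not pair them. Fitted with a replicate block, the count in PCGF6-KO against WT was 22 higher and 2 lower, with COL28A1 lost (adjusted p = 0.0527), and the counts for each clone against WT and for KO2 against KO1 did not change, while the pathway lists had 26 higher and 3 lower. With 2 WT libraries at these totals, genes under about 10 counts are poorly measured, and COL3A1 in WT rests on 7 counts.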

Other observations

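Some rows named after collagens fall outside the naming rule of the gene family. COL6A4P2, a pseudogene of type VI collagen, had 6 and 10 counts in WT, 57 and 48 in KO1 and 76 and 68 in KO2, so that every PCGF6-KO library was above both WT libraries (log2 fold change 2.84, SE 0.37, adjusted p = 0.000381 in edgeR's quasi-likelihood test). Reads could be split between such a copy and its relatives, and the counting rule for them is not given in the sources used here. COL5A1-AS1, named as antisense to COL5A1, had 1 and 1 counts in WT, 4 and 10 in KO1 and 10 and 16 in KO2. It was not among the genes found to share exon sequence with COL5A1 in GENCODE. The annotation and strand setting of the counts are not given, so whether COL5A1 reads entered this row is not known. COL6A4P1 and COL4A2-AS1 stayed between 2 and 9 counts in every library. These 4 rows were chosen after their values were seen.

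The marker lists of 3 further lineages also moved. Of 7 endoderm markers 5 rose (SOX17, FOXA2, GATA4, GATA6 and CXCR4), and the summed level of the list was 7.68 and 7.16 TPM in WT and between 67.7 and 131 TPM in PCGF6-KO. All that rose except CXCR4 lay under the level of the low-count filter in both WT libraries and so had to be higher to be tested. Of 6 tested amnion and surface ectoderm markers 4 rose (TFAP2A, TFAP2B, GATA3 and ISL1), and the list went from 13.3 and 10.7 TPM in WT to between 40.7 and 59.5 TPM. The same limit of the filter holds for TFAP2A, TFAP2B and ISL1. Of 4 tested neuroectoderm markers NES and LHX2 rose and OTX2 fell, and the list summed to 320 and 357 TPM in WT and between 503 and 573 TPM in PCGF6-KO. That sum follows NES, at a mean of 240 TPM in WT and 494 in PCGF6-KO. OTX2 went from 98 to 39.1 TPM and LHX2, under the filter level in both WT libraries, from 0.459 to 2.27 TPM. PAX6 was not called, and SOX1 and SIX3 were too low to be tested. Their part in the collagen values was not tested.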
